A study of Mus musculus with 6 samples.

Results

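The genes described here are 6 Toll-like receptors (*Tlr2*, *Tlr3*, *Tlr4*, *Tlr7*, *Tlr9* and *Tlr13*), the adaptor *Myd88*, the co-receptor *Cd14* and the cytosolic sensor *Nlrp3*. They were chosen by name, and all 9 were matched by symbol, out of 31053 genes listed for the cortical libraries and 27998 listed for the hippocampal libraries. Prep 1 held cells of the cerebral cortex from 3 female wild-type C57Bl/6J mice at 3 weeks of age. Prep 3 held hippocampal cells from 3 female wild-type mice of the same strain at 5 weeks of age. No group received a treatment. The cells of the 3 animals were pooled into 1 suspension per preparation, which was run as 3 technical replicates on a droplet-based platform without sorting. Each region was therefore 1 biological sample, and region, age and preparation changed together and cannot be told apart. No test between regions or cell types was possible. Every SD below covers technical and counting error only. The intervals cover counting error only, and not the spread between libraries.

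Toll-like receptors are membrane proteins of innate immune cells that bind molecules shared by many microbes. TLR2 and TLR4 sit at the cell surface and bind bacterial lipoproteins and lipopolysaccharide, the latter with the help of CD14. TLR3, TLR7, TLR9 and the rodent receptor TLR13 sit in endosomes and bind double-stranded RNA, single-stranded RNA, DNA rich in unmethylated CpG and bacterial ribosomal RNA. MYD88 carries the signal of these receptors except TLR3, which uses the adaptor TRIF (gene *Ticam1*). NLRP3 is a cytosolic protein that assembles an inflammasome, a complex that activates caspase-1. In the brain, microglia are the resident cells best known for these receptors.

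The files gave counts of unique molecular identifiers (UMIs, 1 per captured RNA molecule) for each gene in each cell barcode, from 39662203 to 50024850 UMIs per library. After the quality filters 13320 cortical and 14210 hippocampal cells remained. Cell classes were named from marker lists and are written with -like for that reason. There were 6167 cortical and 5902 hippocampal microglia-like cells, and each of their clusters had all 9 microglia markers. Libraries of the same region shared barcodes, which touched 71 cortical cells (0.533%) and 749 hippocampal cells (5.27%). Of the latter, 558 lay among the 825 choroid plexus epithelial-like cells, whose values are given with this in view, while 19 microglia-like cells of each region were touched. A cluster of 235 cortical cells led by the arterial genes *Gkn3* and *Bmx* and a hippocampal cluster of 266 cells led by *Tagln* and *Acta2* stayed unnamed. The hippocampal endothelial-like class therefore holds an arterial-led cluster that the cortical class lacks, and no vascular smooth muscle cell (VSMC)-like class is given for the hippocampus. A shallow cortical cluster of 368 cells led by *C130074G19Rik* (median 1152.5 UMIs, 22.0% called doublets) also stayed unnamed. A hippocampal cluster of 265 cells led by the same gene (median 1408 UMIs, 21.5% called doublets) was classed as endothelial-like. The cortical neuron-like class of 149 cells mixes immature neurons with cycling cells and cells with *Cd79a*, a B cell gene.

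Levels are given as CPM, the UMIs of a gene relative to all UMIs of the same cells on the usual CPM scale. Each molecule counts once at its 3′ end, so CPM needs no scaling by gene length, and levels are compared between cell classes rather than between genes. As a measure of microglial RNA in other classes, the summed CPM of the 9 microglia markers in each class is given as a percent of that in microglia-like cells. It is called carry-over here. It can hold RNA released in dissociation and RNA of doublets, which were kept, and the part of each was not tested. This carry-over was 1.40% in cortical and 2.71% in hippocampal endothelial-like cells, 2.69% and 3.86% in astrocyte-like cells, 1.16% and 5.13% in pericyte-like cells, and 16.99% in the cortical erythroid-like class. A gene found only in microglia would reach about the same percent of its microglial level.

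On GRCm38 with GENCODE release M21, *Tlr2* (ENSMUSG00000027995) lies at chr3:83836272-83841767, *Tlr3* (ENSMUSG00000031639) at chr8:45395665-45411080, *Tlr7* (ENSMUSG00000044583) at chrX:167304929-167330558 and *Myd88* (ENSMUSG00000032508) at chr9:119335934-119341411, all on the minus strand. *Tlr4* (ENSMUSG00000039005) lies at chr4:66827584-66930284, *Tlr9* (ENSMUSG00000045322) at chr9:106222598-106226883, *Tlr13* (ENSMUSG00000033777) at chrX:106143204-106160493 and *Nlrp3* (ENSMUSG00000032691) at chr11:59541568-59566956, all on the plus strand. *Cd14* has the identifier ENSMUSG00000051439. No exon of a member overlapped an exon of another gene on the same strand. *Tlr3* and *Myd88* overlapped exons of *Gm45542* and *Acaa1a* on the opposite strand.

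*Cd14*, the co-receptor for lipopolysaccharide, had its highest mean over libraries in microglia-like cells in both regions. In the cortex the macrophage-like libraries overlapped the microglia-like ones, and from summed counts macrophage-like cells had 1.06 times the microglial level. Microglia-like cells had 317, 344 and 355 CPM of *Cd14* in the 3 cortical libraries (mean 339 ± 19.2, SD, n = 3 technical replicates). In the hippocampal libraries they had 411, 389 and 392 CPM (397 ± 11.6). A UMI of *Cd14* was found in 78.5% of cortical microglia-like cells (95% Clopper-Pearson interval 77.5% to 79.6%) and 1.88% of cortical endothelial-like cells (1.37% to 2.52%). The median depths of these classes were 5470 and 6687 UMIs. Thinned to 1000 UMIs per cell, the shares were 28.2% and 0.0855%. In endothelial-like cells *Cd14* was close to the carry-over, at 1.28% of its microglial level in the cortex and 2.73% in the hippocampus. The cortical neuron-like class had 5.18% (3.35% to 7.64%) against a carry-over of 1.50%, with 54.6 CPM in the second library and 4.11 and 8.20 CPM in the others. In none of the 8 cortical and 9 hippocampal non-myeloid classes was its interval above the highest single microglia marker. Microglia-like cells held 92.6% of all cortical and 92.8% of all hippocampal *Cd14* UMIs.

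*Tlr2*, the receptor for bacterial lipoproteins, was measured at 70.5, 76.0 and 78.5 CPM in the microglia-like cells of the cortical libraries and at 87.0, 85.6 and 78.9 CPM in the hippocampal ones. The hippocampal libraries all lay above the cortical ones, with the nearest values 78.9 and 78.5 CPM. Macrophage-like cells had about the same level, with 71.0 ± 18.2 CPM in the cortex and 90.8 ± 24.5 CPM in the hippocampus, and their libraries overlapped those of microglia-like cells. In endothelial-like cells *Tlr2* reached 3.50% of its microglial level in the cortex (counting interval from 2.61%) and 6.43% in the hippocampus (from 5.14%), above every microglia marker. These are low levels, of 51 and 86 UMIs. Choroid plexus epithelial-like cells had 8.14% (from 4.97%) against 2.80% for the highest marker, from 20 UMIs in cells of which 67.6% share a barcode between libraries.

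*Tlr4*, the lipopolysaccharide receptor, was measured at 53.6 ± 1.70 CPM in cortical and 48.4 ± 1.55 CPM in hippocampal microglia-like cells. Its UMIs were less concentrated there, with 86.3% and 86.5% in microglia-like cells. Pericytes are the mural cells of capillaries. Pericyte-like cells had 11.1, 8.89 and 9.52 CPM in the cortex and 7.65, 14.7 and 12.8 CPM in the hippocampus. That is 18.3% and 24.2% of the microglial level, or 15.7 and 4.72 times the carry-over. In the hippocampus 1 microglia marker, *Sall1*, reached 18.6% in the same cells, so that the interval of *Tlr4* (from 15.3%) was above the highest marker in the cortex but not in the hippocampus. In endothelial-like cells *Tlr4* reached 4.51% in the cortex and 7.65% in the hippocampus, above the highest marker in both. Fibroblast-like cells, with 77 and 48 cells, had 18.4% and 24.3% of the microglial level from 9 and 5 UMIs.

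**Figure D1:**
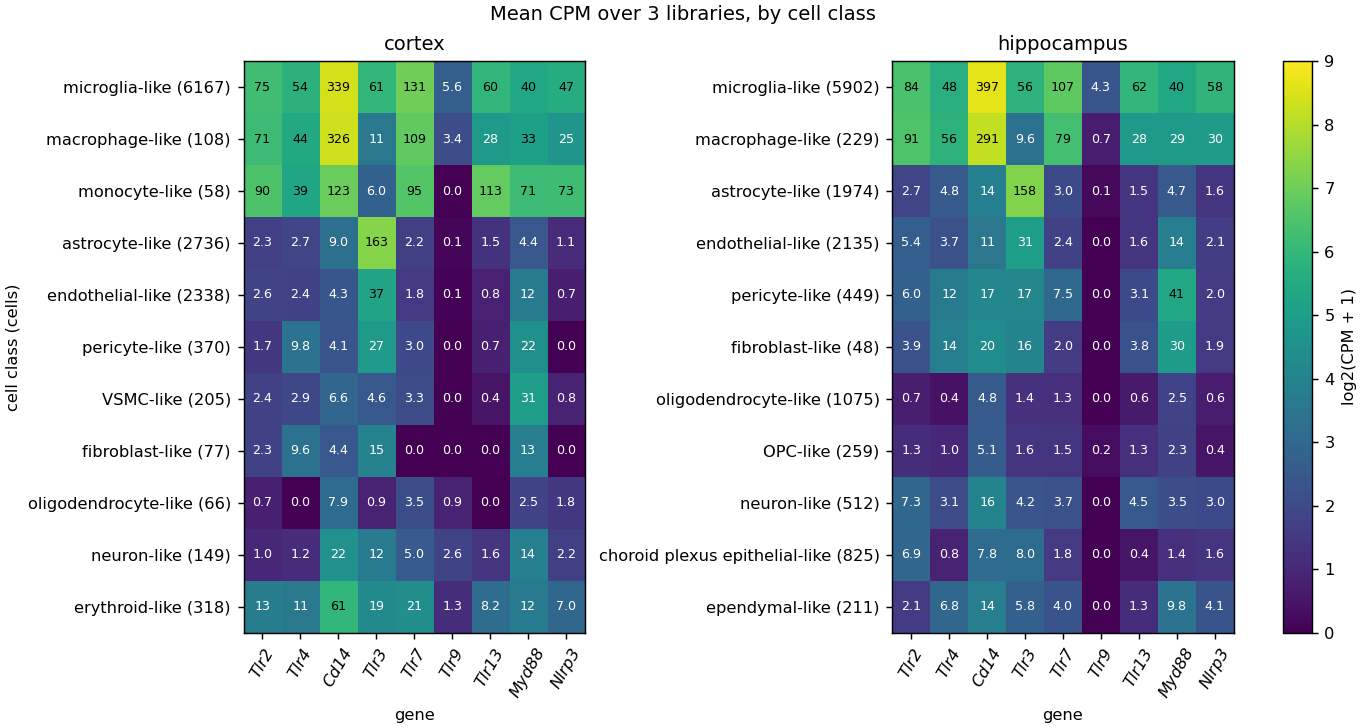
Mean level of the 9 members over 3 technical libraries in each named cell class of the cortex (left) and hippocampus (right), with the CPM printed in each cell and coloured as log2(CPM + 1), and the number of cells in brackets. *Tlr3* is highest in astrocyte-like cells (163 and 158 CPM), *Myd88* is spread over myeloid, mural and other classes, and *Cd14*, *Tlr7*, *Tlr13* and *Nlrp3* are low outside the myeloid classes.

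*Tlr3*, the endosomal receptor for double-stranded RNA, had its highest level outside the myeloid classes, in astrocyte-like cells of both regions. Astrocyte-like cells had 186, 161 and 143 CPM in the cortical libraries (163 ± 21.7) and 160.0, 154 and 159 CPM in the hippocampal ones (158 ± 3.43). Microglia-like cells had 70.5, 60.8 and 52.8 CPM in the cortex (61.4 ± 8.87) and 57.4, 54.9 and 55.1 CPM in the hippocampus (55.8 ± 1.39). Every astrocyte-like value lay above every microglia-like value of the same region, and the astrocytic level was 267% of the microglial one in the cortex and 282% in the hippocampus. Astrocyte-like cells held 47.0% and 41.5% of all *Tlr3* UMIs, and microglia-like cells 34.6% and 44.5%. Thinned to 1000 UMIs, 14.2% of cortical astrocyte-like cells (12.9% to 15.6%) and 6.16% of microglia-like cells (5.56% to 6.79%) had a *Tlr3* UMI.

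The *Tlr3* level in microglia-like cells was set beside RNA carried over from astrocytes. The 9 astrocyte markers reached 1.43% of their astrocytic level in cortical and 1.07% in hippocampal microglia-like cells, and the highest single marker 5.22% and 4.65%, whereas *Tlr3* reached 37.4% and 35.4%. Endothelial cells line the vessel wall, and endothelial-like cells came next, with 38.1, 36.6 and 36.7 CPM in the cortex and 29.5, 29.7 and 33.6 CPM in the hippocampus. Their *Tlr3* was 22.7% and 19.6% of the astrocytic level against 4.35% and 3.36% for the highest astrocyte marker. Pericyte-like cells had 27.5 ± 5.51 and 16.7 ± 3.91 CPM, but the astrocyte marker list summed to 16.4% and 33.3% of its astrocytic level there, with single markers from 0.494% to 178%. The part of carried-over RNA in the pericyte-like value of *Tlr3* was not tested. In the order of classes, astrocyte-like, microglia-like, endothelial-like and pericyte-like cells followed each other in both regions without overlap between neighbouring libraries, and pericyte-like cells overlapped the class next below.

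**Figure D2:**
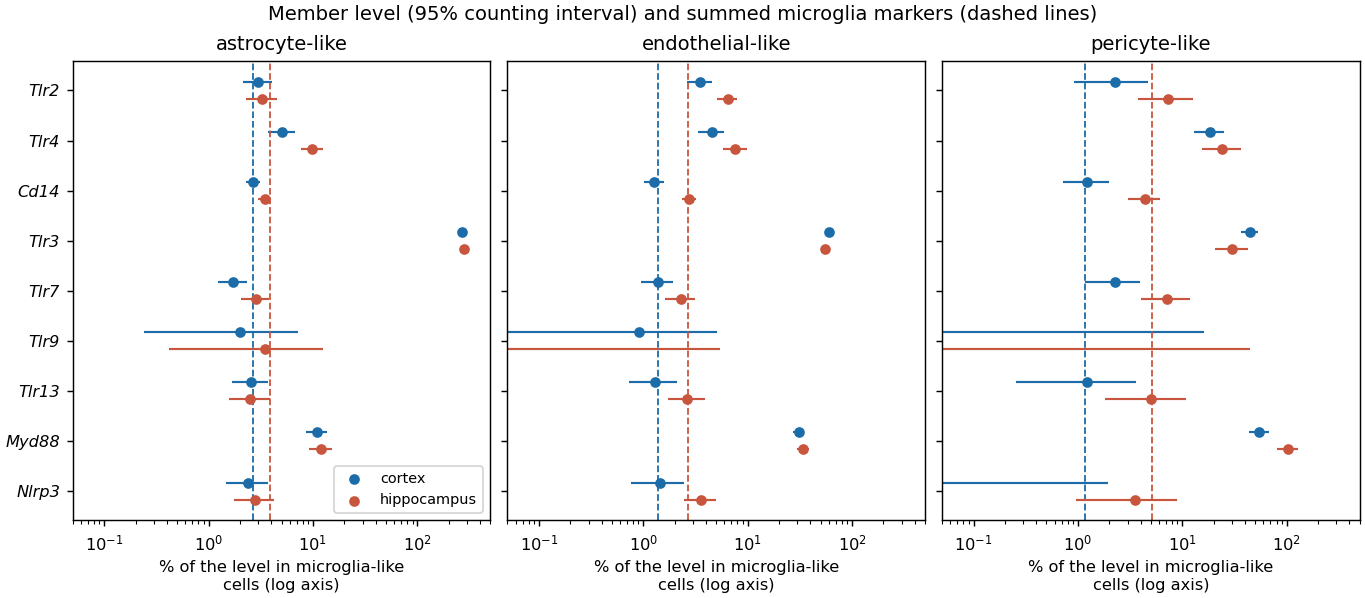
Level of each member in astrocyte-like, endothelial-like and pericyte-like cells as a percent of its level in microglia-like cells of the same region (points, log axis) with 95% counting intervals (lines, cut at the left edge), and the same percent for the summed microglia markers (dashed lines). *Tlr3* and *Myd88* lie far to the right of the dashed lines, at 60.6% and 30.9% in cortical endothelial-like cells against 1.40%, while *Cd14* and *Tlr13* lie on them.

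*Tlr7*, which binds single-stranded RNA, was measured at 135, 133 and 124 CPM in the microglia-like cells of the cortical libraries and at 108, 106 and 108 CPM in the hippocampal ones. Each cortical library lay above each hippocampal one. Macrophage-like cells had 109 ± 48.7 and 78.5 ± 8.11 CPM, which overlapped microglia-like cells in the cortex and lay below them in the hippocampus. *Tlr13*, the receptor for bacterial ribosomal RNA, was measured at 59.8 ± 7.71 CPM in cortical and 61.6 ± 1.02 CPM in hippocampal microglia-like cells, and the libraries of the regions overlapped. The highest level of *Tlr13* in the cortex was in the 58 monocyte-like cells, with 161, 75.5 and 102 CPM from 37 UMIs. Both genes lie on the X chromosome, and in none of the non-myeloid classes was the interval of either above the highest microglia marker. Microglia-like cells held 93.0% and 93.5% of *Tlr7* UMIs and 92.9% and 93.7% of *Tlr13* UMIs.

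*Tlr9*, the receptor for CpG DNA, was close to the limit of detection. Microglia-like cells had 6.90, 4.83 and 5.12 CPM in the cortical libraries and 4.22, 3.48 and 5.10 CPM in the hippocampal ones, so the regions overlapped. These values rest on 196 and 174 UMIs, and 3.15% and 2.88% of microglia-like cells had one. In endothelial-like cells 1 UMI was counted in the cortex and 0 in the hippocampus. The floor of 3 counts over the class is 0.188 CPM there, and the counting interval of the 0 reached 5.47% of the microglial level. The cortical neuron-like class, which also holds cells with *Cd79a*, was the only non-myeloid class with an interval above the highest microglia marker, at 37.6% of the microglial level (from 7.75%) against 4.54%, from 3 UMIs.

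*Myd88*, the adaptor, was measured in microglia-like cells and in several other classes, among them those of the vessel wall. Microglia-like cells had 38.1, 38.6 and 44.4 CPM in the cortical libraries (40.4 ± 3.51) and 38.0, 41.9 and 39.7 CPM in the hippocampal ones (39.9 ± 1.95). Pericyte-like cells had 22.3, 21.9 and 22.0 CPM in the cortex and 35.2, 49.97 and 36.7 CPM in the hippocampus. In the hippocampus the pericyte-like libraries overlapped the microglia-like ones, at 102% of the microglial level (counting interval from 81.0%), while in the cortex they lay below, at 54.6% (from 43.9%). VSMC-like cells of the cortex, the contractile cells of larger vessels, had 26.4, 43.7 and 22.5 CPM, or 75.5% of the microglial level. Endothelial-like cells had 12.5 ± 0.936 CPM in the cortex and 13.6 ± 0.774 CPM in the hippocampus, or 30.9% and 34.0%. These percents were 47.0 and 19.9 times the carry-over in pericyte-like cells. Cortical neuron-like and fibroblast-like cells had 13.8 ± 4.50 and 13.3 ± 6.02 CPM, or 36.5% and 32.7% of the microglial level. The 48 hippocampal fibroblast-like cells had 76.5% (from 40.8%), and all of these were above the highest microglia marker. In astrocyte-like cells *Myd88* was lower, at 4.38 and 4.72 CPM, and above the highest marker in the hippocampus only, as in hippocampal OPC-like cells (5.82%). Of all *Myd88* UMIs, 67.4% in the cortex and 71.3% in the hippocampus were in microglia-like cells, and 11.5% and 9.38% in endothelial-like cells.

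The stretch before the *Myd88* start is shown because it was the only one of the members' promoter windows with a match upstream of the RefSeq start and outside annotated exons. Windows of 250 bases before to 50 bases after the start were taken from RefSeq on GRCm38.p6 and were found for 6 of the 9 members. They were searched on both strands for GAGGAAGT (a form of the site of PU.1, a transcription factor of myeloid cells), GAAA and GAAA set 2 bases apart (a core of the interferon-stimulated response element) and GGGA and TTCC set 2 bases apart (a form of the NF-κB site). These were present in 3.20%, 3.44% and 1.47% of all 32851 windows, and in 1 member each. The interferon-type match of *Myd88* begins 40 bases before the start. The 20 bases around it lie at chr9:119340044-119340063 on the minus strand, inside the GENCODE spans of *Myd88*, *Slc22a14* and, on the opposite strand, *Acaa1a*, and in no annotated exon. They are printed 5′ to 3′ with the match in capitals.
Myd88: tctcgGAAAGCGAAAgaagg
The match in *Tlr3* (NF-κB form) and that in *Tlr9* (PU.1 form) lie in exons that GENCODE annotates as untranslated. A match is a description of letters and does not show that a factor binds.

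*Nlrp3*, the inflammasome sensor, was measured at 45.4, 47.9 and 46.7 CPM in the microglia-like cells of the cortical libraries and at 53.6, 59.97 and 60.9 CPM in the hippocampal ones, with no overlap. Monocyte-like cells of the cortex had 62.7, 83.9 and 71.4 CPM, above all 3 microglia-like values, from 24 UMIs. No non-myeloid class was above the highest microglia marker. In cortical pericyte-like cells 0 UMIs were counted, where the floor of 3 counts is 0.734 CPM and the counting interval reached 1.93% of the microglial level. Microglia-like cells held 93.1% and 93.3% of all *Nlrp3* UMIs.

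**Figure D3:**
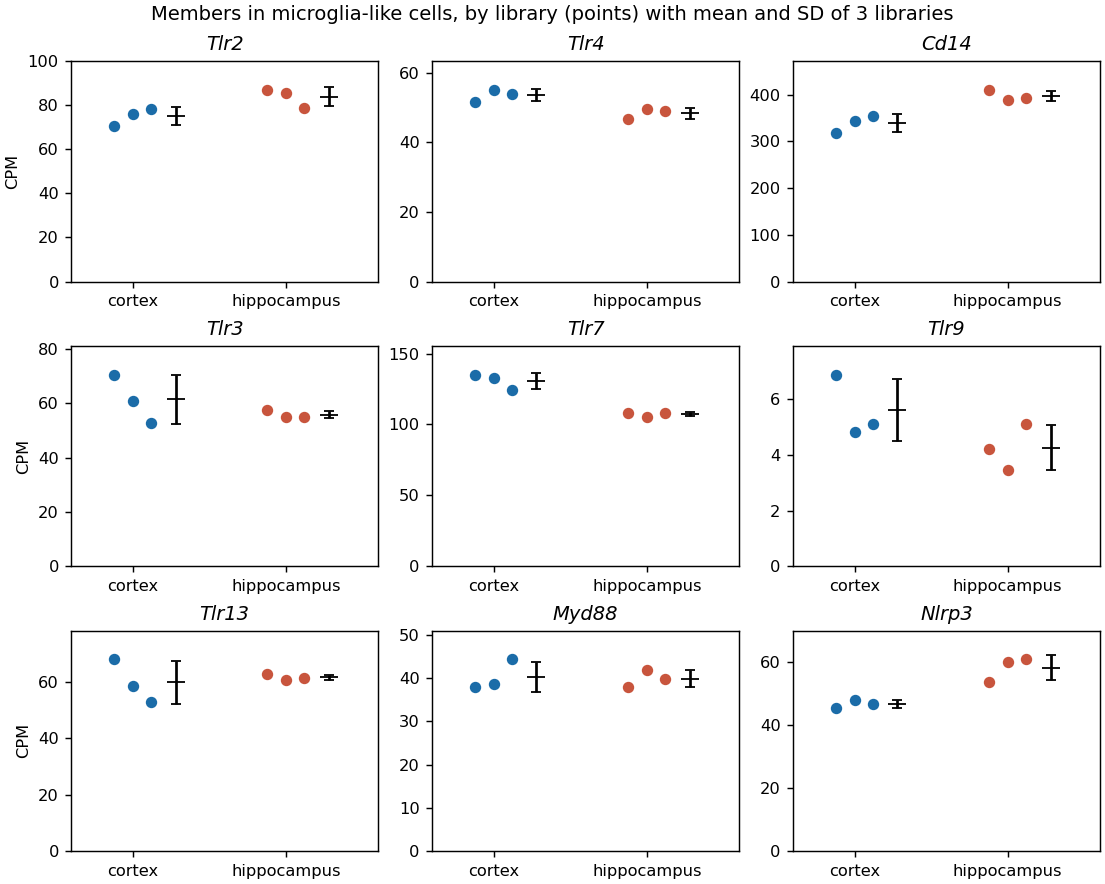
CPM of each member in the microglia-like cells of each technical library (points; cortex in blue, hippocampus in red) with the mean and SD of the 3 libraries (black), each panel starting at 0. *Cd14* and *Nlrp3* are higher in all 3 hippocampal libraries and *Tlr7* and *Tlr4* in all 3 cortical libraries, whereas *Tlr3*, *Tlr9*, *Tlr13* and *Myd88* overlap.

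Between the regions, no member of microglia-like cells differed by 2-fold. *Nlrp3* was 1.25 times higher in the hippocampus than in the cortex (95% counting interval 1.17 to 1.33), *Cd14* 1.17 times (1.14 to 1.201) and *Tlr2* 1.12 times (1.06 to 1.18). *Tlr7* was at 0.820 of its cortical level (0.787 to 0.855) and *Tlr4* at 0.904 (0.848 to 0.963). For these 5 genes the 3 libraries of the regions did not overlap, and for the other 4 they did. The share of all genes without such overlap was not computed, so this describes the members only. Of the 9366 genes with a mean of at least 5 CPM, 2.53% were past 2-fold, and the median log2 ratio over them was 0.09. Of the 9 members 8 were in this count, *Tlr9* being too low, and 0 of the 8 were past 2-fold. The other genes of the pathway gave the same count, since of 63 genes in 8 lists of receptors, adaptors, kinases, transcription factors, regulators and inflammasome genes 51 were measured above the limit and 0 were past 2-fold. Subclusters with at least 2 chemokine or immediate early genes among their 10 leading genes held 8.40% of cortical and 20.0% of hippocampal microglia-like cells. This leaves in the *Csf1*- and *Lpl*-led subclusters described below, which had 1 such gene among the 10 and, in the hippocampus, the highest chemokine sum (4069 CPM). Without the subclusters that had at least 2 such genes, an alternative chosen after the data were seen, the log2 ratio of *Nlrp3* moved from 0.32 to 0.46.

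The endothelial-like cells of the regions were compared in the same way, although only the hippocampal class holds the arterial-led cluster and the shallow cluster with many called doublets. Of 9733 genes 4.58% were past 2-fold, and of the 3 members above the limit 1 was. *Cd14* had 4.97, 1.71 and 6.28 CPM in the cortical libraries and 6.75, 15.0 and 10.8 CPM in the hippocampal ones, 2.51 times higher (1.92 to 3.30). Over the same classes the carry-over of microglia markers moved from 1.40% to 2.71%, and the part of this in *Cd14* was not tested. With cells called doublets left out, *Cd14* lay under the limit of 5 CPM with a log2 ratio of 0.47 in place of 1.33, and 0 members were past 2-fold. Without the second cortical library the log2 ratio was 0.95, also short of 2-fold. *Tlr3* was at 0.831 of its cortical level (0.740 to 0.933) and *Myd88* at 1.09 (0.902 to 1.31). Among 44 pathway genes, 4 were higher past 2-fold and 1 was lower. *Irf7*, a transcription factor of the interferon response, had 50.3 CPM in the cortex and 135.6 CPM in the hippocampus. *Ly86*, *Unc93b1* and *Aim2*, which are also microglial genes here, were 2.17, 2.01 and 2.04 times higher, and *Lbp*, a lipopolysaccharide-binding protein, fell from 7.26 to 2.83 CPM.

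Macrophages at the borders of the brain are a myeloid population distinct from microglia, and macrophage-like cells were compared with microglia-like cells within each region. *Tlr3* was lower in both. The cortical macrophage-like cells had 10.6, 18.3 and 4.84 CPM (9 UMIs) and the hippocampal ones 0, 9.78 and 19.0 CPM (14 UMIs), all below the microglia-like libraries, at 0.202 of the microglial level (0.0924 to 0.385) and 0.162 (0.0886 to 0.273). *Tlr13* was at 0.507 (0.317 to 0.770) and 0.473 (0.344 to 0.634), with 21.1, 42.6 and 19.4 CPM in the cortex and 21.5, 40.7 and 21.4 CPM in the hippocampus. *Nlrp3* was at 0.591 (0.360 to 0.916) and 0.523 (0.383 to 0.697). For *Tlr3*, *Tlr13* and *Nlrp3* the macrophage-like libraries lay below all microglia-like libraries of the region in both regions. The same held for *Tlr4* in the cortex only, and for *Tlr7*, *Tlr9*, *Myd88* and *Cd14* in the hippocampus only. The share of all genes for which this held was not computed.

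The other members with a mean of at least 5 CPM gave ratios nearer to 1, and only *Myd88* among them was lower in both regions under every alternative run. *Tlr9* was under this limit, at 0.493 (0.0592 to 1.80) and 0.153 (0.00385 to 0.862), from 2 and 1 UMIs in macrophage-like cells. *Tlr2* was at 0.938 (0.696 to 1.24) and 1.05 (0.876 to 1.24), *Tlr4* at 0.823 (0.562 to 1.17) and 1.17 (0.938 to 1.45), and *Myd88* at 0.855 (0.551 to 1.27) and 0.745 (0.543 to 0.998). *Tlr7* was at 0.855 (0.678 to 1.06) and 0.724 (0.599 to 0.868). *Cd14* was at 1.06 (0.933 to 1.197) in the cortex, where its libraries spread from 158 to 499 CPM, and at 0.733 (0.666 to 0.805) in the hippocampus. Without the second cortical library, the log2 ratio of *Cd14* in the cortex turned from 0.08 to -0.47. With each cell classed by its own markers, the log2 ratios in the cortex turned to 0.39 for *Tlr4* and 0.60 for *Tlr7*. That of *Cd14* rose to 0.82 in the cortex and turned to 0.20 in the hippocampus, so *Cd14* was then higher in macrophage-like cells of both regions. Under this setting the cortical log2 ratio of *Tlr13* moved from -0.98 to -0.24. That of *Nlrp3* moved from -0.76 to -0.46 in the cortex and from -0.94 to -0.55 in the hippocampus. Merging without integration moved the log2 ratio of *Tlr4* in the hippocampus from 0.23 to 1.08, past 2-fold, turned that of *Tlr7* from -0.47 to 0.13, and moved that of *Tlr13* from -1.08 to -0.84, short of 2-fold. Past 2-fold were 1 of 8 members in the cortex, where 32% of 9540 genes were, and 2 of 8 in the hippocampus, where 25.7% of 9950 genes were. The share of members past 2-fold was thus at or below that of all genes. Without the second cortical library 3 cortical members were past 2-fold, *Tlr13* and *Nlrp3* being added, and without the first or the third hippocampal library 1 hippocampal member was. Classing each cell by its own markers left 1 member, *Tlr3*, past 2-fold in the hippocampus, and 24 of the 229 hippocampal macrophage-like cells were then T/NK cells, 11 B cells and 30 microglia. Of the 108 cortical macrophage-like cells, 79 were then macrophages and 15 monocytes.

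**Figure D4:**
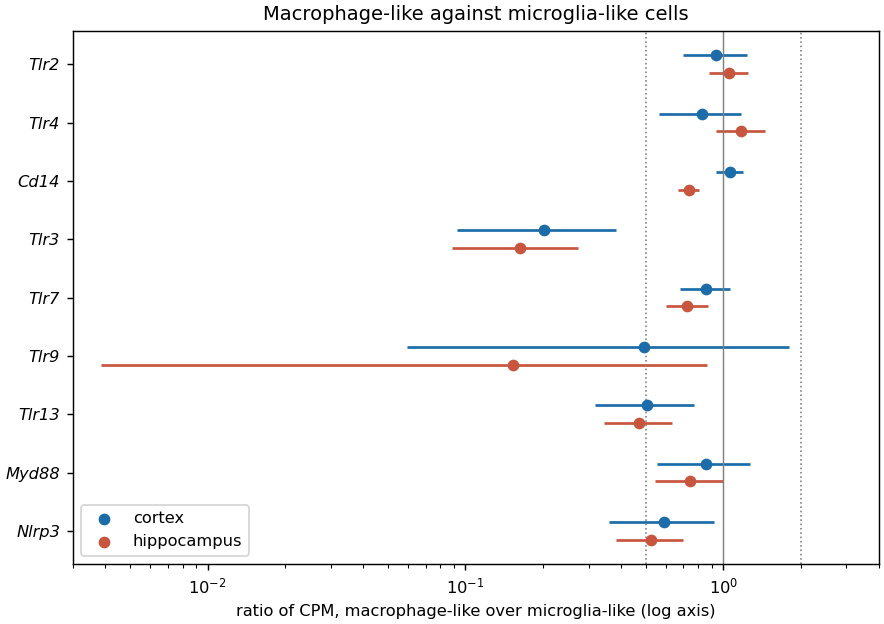
Ratio of CPM in macrophage-like over microglia-like cells for each member (points, log axis) with 95% counting intervals (lines), in the cortex (blue) and hippocampus (red), with dotted lines at 0.5 and 2 and a grey line at 1. *Tlr3* is farthest to the left among the members above 5 CPM, at 0.202 and 0.162, followed by *Tlr13* and *Nlrp3*, while *Tlr2* and *Tlr4* lie around 1 with these classes (hippocampal *Tlr4* is past 2-fold without integration).

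In the pathway lists the same comparison gave 7 of 56 genes higher and 13 lower in cortical macrophage-like cells, and 8 of 57 higher and 10 lower in hippocampal ones. Of all genes, 1073 of 9540 were higher and 1982 lower in the cortex, and 1202 of 9950 higher and 1359 lower in the hippocampus. The genes named next are thus a description and not a trait of the pathway. *Tlr8*, a receptor for RNA, had 24.8 CPM in cortical and 17.5 CPM in hippocampal macrophage-like cells, against 1 UMI and 0 UMIs in microglia-like cells. The ratio in the cortex was 869 (137 to 36200). In the hippocampus it was at least 239-fold higher, taking a floor of 3 counts over the class. *Tlr12*, which was highest in pericyte-like cells (29.4 and 51.0 CPM), showed the reverse, with 17.4 and 19.0 CPM in microglia-like cells and 0 UMIs in macrophage-like cells, at least 4.21-fold and 9.81-fold lower. *Ly86* and *Cd180*, a pair of proteins related to the TLR4 complex, were lower in both regions, at 0.427 and 0.273 of the microglial level in the cortex. The scavenger receptor *Cd36* had 192 and 208 CPM in macrophage-like cells and 0.0286 and 0.268 CPM in microglia-like cells. Of the inflammasome genes, *Nlrc4* was higher in macrophage-like cells (26.2 and 20.1 CPM) and *Pycard*, the adaptor of NLRP3, was lower (0.426 and 0.422 of the microglial level). *Irf7* and the regulators *Irak3* and *Sigirr* were higher in both regions, and *Tmem173* (STING) and *Mb21d1* (cGAS), which sense cytosolic DNA, were lower in both.

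The 58 monocyte-like cells of the cortex, with 6 of 7 monocyte markers, gave another myeloid pattern. Their first leading gene was *S100a8*, which is on the neutrophil marker list, and whether the class also holds neutrophils was not tested. *Tlr13*, *Nlrp3* and *Myd88* were at 188%, 156% and 173% of the microglial level, with counting intervals from 132%, 100.2% and 110%. *Cd14* was at 35.9%, with 143, 83.9 and 143 CPM, and *Tlr3* rested on 2 UMIs. Microglia markers reached 8.70% of their microglial level in these cells. No monocyte-like class was named in the hippocampus, where a shallow cluster of 325 cells was closest to monocytes.

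The chaperones that carry Toll-like receptors out of the endoplasmic reticulum were abundant in microglia-like cells. *Unc93b1*, needed by the endosomal receptors, had 853 CPM in the cortex and 1103 CPM in the hippocampus. *Cnpy3* had 145 and 158 CPM, and *Hsp90b1* 711 and 858 CPM, but *Hsp90b1* was at 100 CPM or more in all 11 cortical classes. *Lbp* was almost absent from microglia-like cells (0.257 and 0.535 CPM) and had 339 CPM in cortical fibroblast-like and 458 CPM in hippocampal ependymal-like cells. *Il18*, a substrate of caspase-1, was highest in astrocyte-like cells with 317 and 195 CPM, whereas *Pycard* was highest in microglia-like cells with 475 and 436 CPM.

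Microglia-like cells were clustered again within each region on genes other than the members and the pathway lists, and the subclusters were described by their leading genes. A subcluster led by *Ccl2*, *Atf3* and immediate early genes had 299 cortical and 236 hippocampal cells. *Nlrp3* in it was measured at 89.3, 95.7 and 91.2 CPM in the cortical libraries against 43.9 CPM in the other microglia-like cells, 2.10 times higher (1.79 to 2.45). In the hippocampus it was measured at 58.4, 81.4 and 72.0 CPM against 57.6 CPM, 1.22 times (1.01 to 1.46). Other hippocampal subclusters had more *Nlrp3*, with 84.5 CPM in a subcluster of 207 cells (1.47 times the rest, 1.148 to 1.85) and 71.0 CPM in one of 1862 cells (1.34 times, 1.23 to 1.46). The same chemokine-led subclusters had less *Tlr3*, at 0.744 (0.597 to 0.917) and 0.774 (0.609 to 0.970), and *Cd14* was at 1.28 and 1.07. Past 2-fold were 1 of 9 members in the cortex, where 2.97% of 9284 genes were, and 0 of 9 in the hippocampus, where 2.13% of 9444 genes were. Of the pathway genes past 2-fold in both, *Il1b*, *Tnfaip3* and *Nfkbia* were higher, and *Il1b* rose from 1.39 to 43.8 CPM in the cortex and from 2.80 to 8.94 CPM in the hippocampus.

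A subcluster led by *Csf1*, *Lpl* and *Cst7* had 253 cortical and 352 hippocampal cells. *Tlr2* in it was measured at 112, 115 and 106 CPM in the cortex and 139, 126 and 126 CPM in the hippocampus, 1.52 times (1.31 to 1.75) and 1.63 times (1.46 to 1.80) the level of the other microglia-like cells. *Tlr3* was at 0.577 (0.446 to 0.736) and 0.648 (0.533 to 0.781), and *Myd88* at 0.740 (0.556 to 0.967) and 0.631 (0.499 to 0.790). *Tlr13* was at 1.35 and 1.09, and *Nlrp3* at 0.911 and 0.722.

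A subcluster led by interferon-induced genes such as *Ifit3* had 158 cortical and 137 hippocampal cells. *Tlr3* in it was measured at 143, 142 and 103 CPM in the cortical libraries, 2.15 times the 59.6 CPM of the other microglia-like cells (1.76 to 2.59). In the hippocampus it was measured at 87.5, 58.8 and 82.7 CPM, 1.38 times the 55.2 CPM of the others (1.09 to 1.71). *Myd88*, whose interferon-type promoter match is printed above, was at 1.18 (0.850 to 1.599) and 1.01 (0.730 to 1.36), so that a difference was not detectable at this depth. The astrocyte markers summed to 259 CPM in the cortical and 232 CPM in the hippocampal interferon subcluster, against 258 and 231 CPM in the subcluster with the most cells in each region. In the subclusters led by astrocyte genes, which had 3690 CPM of astrocyte markers in the cortex and 2425 CPM in the hippocampus, *Tlr3* was at 0.997 (0.753 to 1.30) and 1.26 (0.846 to 1.80) of the other microglia-like cells. The part of astrocyte RNA in *Tlr3* was not tested.

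**Figure D5:**
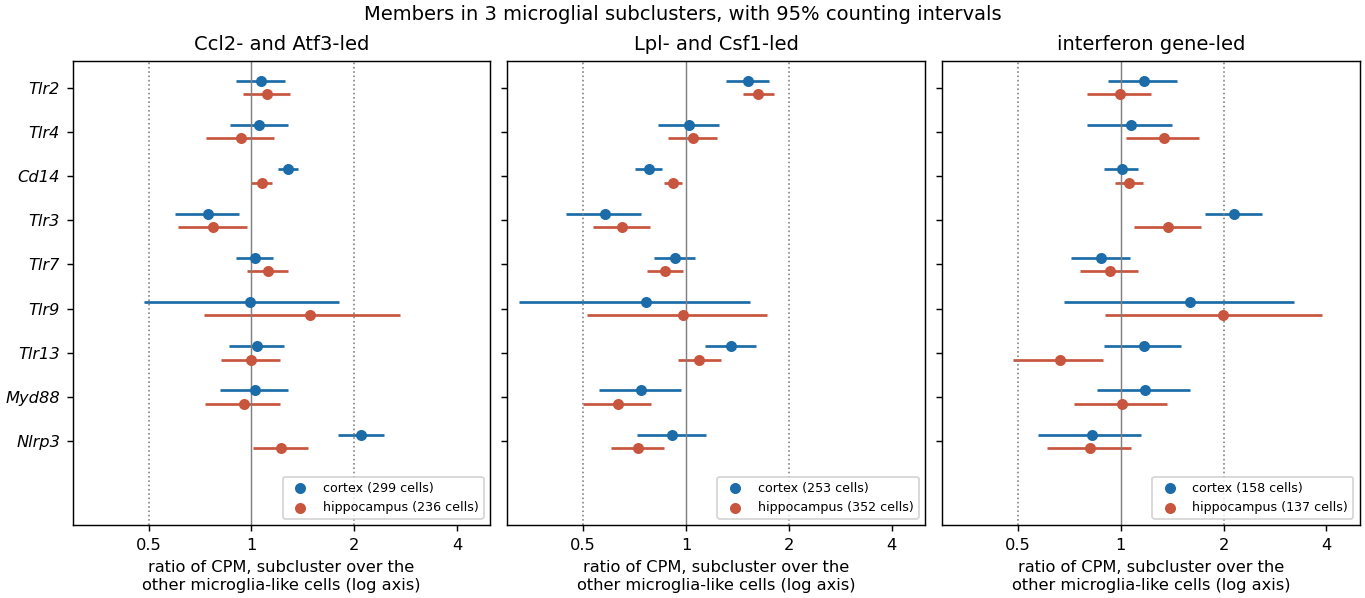
Ratio of CPM of each member in 3 microglial subclusters over the other microglia-like cells of the same region (points, log axis) with 95% counting intervals (lines), in the cortex (blue) and hippocampus (red), with dotted lines at 0.5 and 2. Among the subclusters drawn, *Nlrp3* is highest in the one led by *Ccl2* and *Atf3* (2.10 and 1.22), *Tlr2* in the one led by *Lpl* and *Csf1* (1.52 and 1.63), and *Tlr3* in the interferon gene-led one (2.15 and 1.38), while hippocampal subclusters not drawn had up to 1.47 for *Nlrp3*.

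The genes with the most similar pattern were found over 14 points, 7 classes with at least 50 cells in both regions, by Pearson's r of log2(CPM + 1) among 11131 genes. The points share libraries and carry-over, so r is a description. *Cd14* was closest to *Fcgr3* (r = 0.997), *Arl11* and *Rbm47*, *Nlrp3* to *P2ry6* (0.994), *Fcgr3* and *Cd14*, and *Tlr13* to *C1qa* (0.991), *Fcgr1* and *C1qb*. *Tlr7* was closest to *Ticam2* (0.989), *Arl11* and *Lrrc25*, *Tlr2* to *Adgre1* (0.988), *Cd33* and *Ccl6*, and *Tlr4* to *Abca9* (0.975) and *Renbp*. *Myd88* was closest to *Psme2b* (0.977), *Arhgef6* and *Tec*, and *Tlr3* to *Paqr7* (0.948), *Tbc1d10a* and *Marc2*. *Tlr9* was under 20 CPM in every class and was left out.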

How the data were processed

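Single-cell libraries were measured from 2 pooled suspensions, 3 technical libraries each. The authors deposited UMI counts per gene and barcode, made with Cell Ranger 5.0.1 on mm10 per the labels, while the file headers name software 3.0.1 (cortex) and 3.1.0 (hippocampus). Gene lists differ between regions, with 27514 identifiers shared. Total counts ran from 39662203 to 50024850 per library.

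Kept barcodes had between 250 and 6000 detected genes, with mitochondrial UMIs below 25%. Each region was clustered with Seurat 5.3.0 in R 4.3.3 (CCA integration, 30 dimensions, 2000 variable genes, resolution 0.5), with the members and pathway genes left out of the clustering genes. Clusters were named from 17 marker lists, needing at least 3 markers. Cells called doublets by Scrublet (scanpy 1.11.5) were kept except where stated. Levels are CPM of summed UMIs, given as the mean and SD over 3 libraries and with exact Poisson intervals (scipy 1.17.1) from summed counts. Ratios use the summed counts. A gene was called at 2-fold in either direction where the mean of both CPM was at least 5, and a count of 0 was set to a floor of 3 counts over the class. Shares of cells were also computed after thinning to 1000 UMIs, leaving out shallower cells, with Clopper-Pearson intervals at 95%. Intervals cover counting error only. Ratio calls were tested on simulated data.

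With 1 biological sample per region, no test was made. Members and lists were chosen with earlier results of these data known. Besides the members, the text names pathway genes past 2-fold in a comparison or at 100 CPM or more in a class, and the 3 genes most like each member, except for a gene that is not reported here. Other preparations were not analysed here.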

Additional observations from a re-analysis of the deposited data

How the results depend on the processing

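In microglia-like cells 0 members were past 2-fold between the regions under every alternative run. In endothelial-like cells the count of 1 became 0 with cells classed by their own markers and with doublets left out, and 4 with a filter of 10 UMIs in all, and it ran from 0 to 1 when each library was left out in turn. In cortical macrophage-like cells the count of 1 became 2 with doublets left out, with a mitochondrial limit of 10% and with a filter of 10 UMIs, and 3 at a fold of 1.5, and it ran from 1 to 3 when each library was left out. In hippocampal macrophage-like cells the count of 2 became 1 with cells classed by their own markers and 3 with a filter of 10 UMIs and at a fold of 1.5, and it ran from 1 to 3 when each library was left out. Merging without integration and a resolution of 1.0 also gave 2, but with *Tlr4* (higher) and *Tlr3* in place of *Tlr13* and *Tlr3*. The causes were not tested. *Tlr3* was past 2-fold in macrophage-like cells of both regions under all of these alternatives. Levels in microglia-like cells moved by at most 1.13-fold, for *Tlr9*. Leaving out the chemokine and immediate early subclusters was, for levels and ratios, chosen after the data were seen. No paired analysis was possible because no result comes from a test. Depth limits *Tlr9*, with 174 and 196 UMIs in microglia-like cells, and every member in the classes with few cells.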
